A study of Mus musculus with 6 samples.

Results

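The genes described here are the nuclear genes whose symbols start with Nduf, most of which encode subunits and assembly factors of respiratory complex I. All 46 protein-coding genes with such a symbol and a value in these hearts were taken, whatever their level, out of 36757 genes given a value. Ndufa4 and Ndufa4l2 keep the name but are not complex I subunits. Both stay in the counts of 46 complex I genes below. All 46 passed the filter of the genotype test, a mean of at least 1 FPKM over 6 libraries, as did 11385 genes in all. FPKM is a level, the number of sequenced fragments corrected for transcript length and for the size of the library, and a gene's FPKM was the sum over its transcripts.

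Complex I (NADH:ubiquinone oxidoreductase) is the entry point of the mitochondrial respiratory chain. Its hydrophilic arm takes electrons from NADH and hands them through a chain of iron-sulfur clusters to ubiquinone, and its membrane arm pumps protons out of the matrix. Heart muscle is rich in mitochondria and depends on this chain for ATP. The conserved core subunits are divided between nuclear genes, considered here, and mitochondrial genes, which were not analysed here. The accessory subunits surround the core, and the assembly factors help build the enzyme without staying in it.

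The study sequenced heart mRNA of 6 mice, all 32 weeks old: libraries 1 to 3 came from ApoE-/- controls and libraries 4 to 6 from ApoE-/- Timp3-/- double mutants, 3 mice each. Both groups lacked ApoE, a lipoprotein ligand whose loss raises plasma cholesterol and leads to atherosclerosis. The groups differed in Timp3, an inhibitor of extracellular metalloproteinases, so the comparison asked what its loss did to the ApoE-null heart. The controls were littermates, and how the mutant Timp3 allele was made, the sex of the mice and the part of the heart taken were not given in the sources used here.

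Timp3 itself stood at 52.1, 38.0 and 36.3 FPKM in libraries 1 to 3 and at 20.2, 28.0 and 29.6 in libraries 4 to 6. The groups did not overlap, but Timp3 mRNA remained in all 3 libraries labelled Timp3-/- (log2 difference -0.61, limma adjusted p = 0.29, exact two-sided permutation p = 0.1, the smallest that 3 against 3 libraries allow). Each library held 654 to 1339 megabases of aligned sequence. Cardiomyocyte markers were high in every library, with Tnnt2 at 2753 to 4974 FPKM. Some libraries stood apart by markers of other cells. Libraries 1, 5 and 6 were high in atrial markers (Myl7 at 409.3, 173.2 and 229.2 FPKM, against 1.21 to 13.4 in libraries 2, 3 and 4). The atrial peptide gene Nppa did not follow this split: it was at 802.2 FPKM in library 2, between 490.5 in library 5 and 823.3 in library 1. Bmp10 followed it only in part: it was at 10.1 and 32.5 FPKM in libraries 5 and 6 but at 0.48 in library 1. Library 4 was high in red blood cell markers (Hba-a2 at 9506 FPKM, against 78.0 to 900.0 in the others). Library 1 was high in fat markers (Adipoq at 23.3 FPKM, against 0.16 to 5.72). Results for the complex I genes are therefore also given without these libraries or with the atrial level in the fit.

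The complex I subunit genes were abundant, and the assembly factor genes ran far lower. Over both groups, the 36 subunit genes of the core and accessory classes, Ndufab1 among them, had a median scaled level of 111.7 FPKM, and the lowest was Ndufb4 at 10.3. The 8 Ndufaf genes had a median of 10.02 FPKM, from 4.30 to 22.4. Scaled FPKM is the deposited FPKM divided by a factor per library, from 0.896 to 1.17. The median over all genes tested was 5.01 FPKM. Ndufs1, which carries several iron-sulfur clusters, was among the most abundant core subunits, at 299.2 FPKM in the mean of the deposited values. The assembly factor with the highest mean was Ndufaf1, a part of the membrane arm assembly complex, at 22.4 FPKM. That with the lowest was Ndufaf7, a protein arginine methyltransferase, at 4.32 FPKM.

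**Figure D1:**
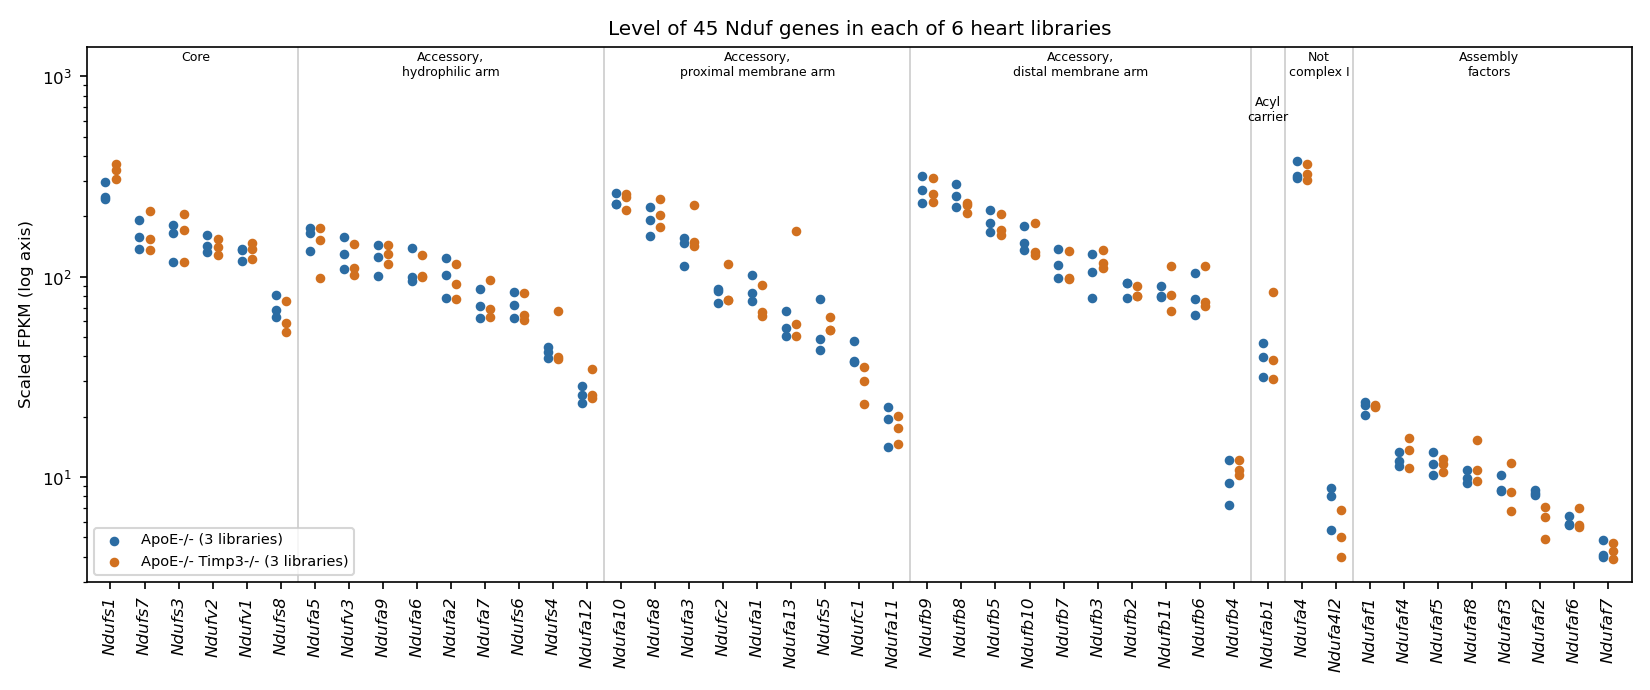
Scaled FPKM (log axis) of 45 of the 46 Nduf genes, grouped by role and ordered by mean level within a role, with 1 point per library (blue, 3 ApoE-/- hearts; orange, 3 ApoE-/- Timp3-/- hearts). The subunit genes lie at a median of 111.7 FPKM and the assembly factors at 10.02 FPKM, and the blue and orange points overlap except in Ndufs1, Ndufc1 and Ndufaf2.

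No complex I gene passed the genotype test, and as a group the genes had no common direction. With limma on log2(scaled FPKM + 1), 0 of 46 had an adjusted p under 0.05, where 5 of 11385 genes did (0.0439%). The smallest adjusted p among the 46 was 0.33, and 3 had an unadjusted p under 0.05, against 12.2% of all genes. The difference of double mutants minus controls was above 0 for 23 genes, against 48.8% of all genes, and below 0 for 23. Its median was 0.01, beside -0.01 over all genes tested, and the range was -0.47 to 0.46. The scaled values of the groups did not overlap for 3 genes, against 19.2% of all genes: Ndufs1 was higher in the double mutants, and Ndufc1 and Ndufaf2 were lower. The 36 subunit genes summed to 4584 ± 642 scaled FPKM in controls (SD, n = 3) and 4703 ± 728 in double mutants (SD, n = 3), a gap well inside the spread.

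**Figure D2:**
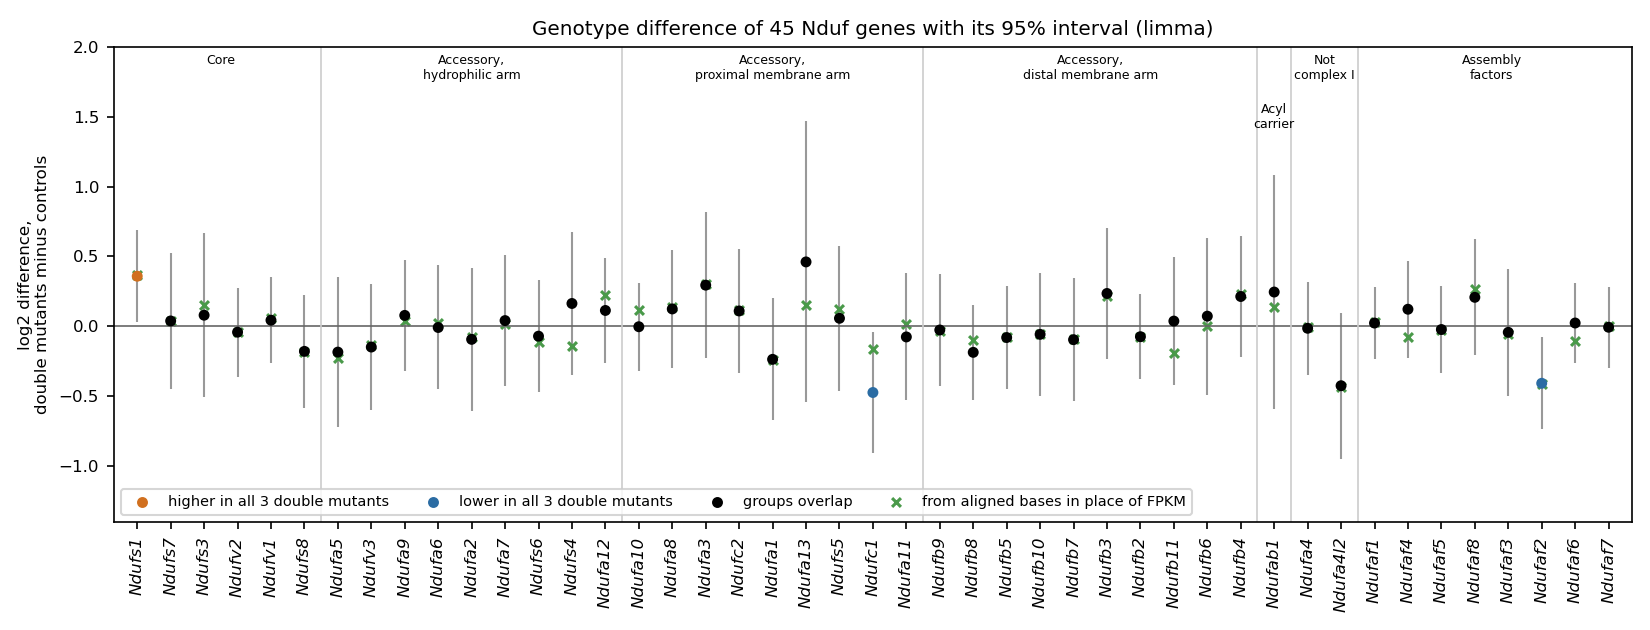
The log2 difference of 45 of the 46 Nduf genes (double mutants minus controls; points) with its 95% interval from limma (bars), grouped by role, beside the same difference computed from aligned bases (green crosses). Orange and blue points mark the 3 genes whose groups did not overlap, Ndufs1 (0.36), Ndufc1 (-0.47) and Ndufaf2 (-0.41), and the widest interval belongs to Ndufa13.

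The 7 nuclear core subunits carry the flavin, the iron-sulfur clusters and the ubiquinone site. Their differences ran from -0.18 to 0.36 with a median of 0.04, and 5 of 7 were above 0. Ndufs1 (chr1:63190170-63223396, minus strand, NCBIM37), the largest subunit of the NADH-oxidising module, stood at 290.2, 246.8 and 272.6 FPKM in controls and at 315.1, 326.2 and 344.0 in double mutants. Every double-mutant library was above every control. The scaled means were 263.4 ± 28.3 and 337.7 ± 28.0 (SD, n = 3 each), a log2 difference of 0.36 ± 0.14 (SE; limma adjusted p = 0.38). The gap kept its sign with any 1 library left out, at 0.30 to 0.45, and was 0.37 from aligned bases, but shrank to 0.23, 0.17 and 0.13 under 3 other scalings described below, where the groups overlapped. They also overlapped at a mean FPKM of at least 10 (0.28) and from the strongest transcript alone (0.21). Ndufs8, which holds 2 of the clusters near the ubiquinone site, lay at 73.5, 81.8 and 62.5 FPKM in controls and at 77.7, 52.9 and 53.7 in double mutants, with library 4 among the controls (log2 difference -0.18). Ndufv1, which binds NADH and the flavin, ranged from 127.0 to 139.7 FPKM in controls and from 123.4 to 150.4 in double mutants. It did not separate the genotypes, and the same held for Ndufv2, Ndufs3 and Ndufs7, whose differences were -0.04, 0.08 and 0.04.

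The 9 accessory subunits of the hydrophilic arm had a median difference of -0.01, and 4 of 9 were above 0. None of them separated the groups. Ndufa5, which sits on the ubiquinone module, lay at 156.8, 175.9 and 152.4 FPKM in controls and at 178.6, 136.9 and 100 in double mutants. The double mutants thus held both the highest and the lowest value of this gene. Ndufv3, a small subunit of the NADH module, ranged from 120.0 to 159.1 FPKM in controls and from 99.5 to 148.5 in double mutants. Ndufs4, a subunit that stabilises the NADH module and whose loss causes Leigh syndrome, lay at 45.8, 44.8 and 38.5 FPKM against 68.6, 35.7 and 39.1. Only library 4 was high, and its excess is taken up below with the transcript models. Ndufa12, which joins late at the junction of the modules, ranged from 21.7 to 29.9 FPKM in controls and from 22.9 to 35.4 in double mutants. The differences of Ndufa2, Ndufa6, Ndufa7, Ndufa9 and Ndufs6 lay between -0.09 and 0.08.

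The 9 accessory subunits of the proximal membrane arm had the widest range of any class, -0.47 to 0.46, with a median of 0.06 and 5 of 9 above 0. Ndufc1 (chr3:51208599-51212910, minus strand, NCBIM37), a small subunit with a single membrane span, stood at 43.7, 48.0 and 34.9 FPKM in controls and at 36.1, 27.0 and 23.3 in double mutants. On the deposited scale library 4 was just above library 3, and after scaling every double mutant was below every control. The scaled means were 41.02 ± 5.80 and 29.5 ± 6.15 (SD, n = 3 each), a log2 difference of -0.47 ± 0.18 (SE; limma adjusted p = 0.38). From aligned bases the difference was only -0.16, and from the strongest transcript -0.10; the groups overlapped in both and also without scaling (-0.55). Ndufa13, also known as GRIM-19, had the highest difference of the 46 genes, 0.46, and it rested on library 4: 58.7, 68.1 and 51.3 FPKM in controls against 172.7, 52.2 and 51.3. Without library 4 it was -0.08. Ndufa3 lay at 172.4, 114.1 and 143.0 FPKM against 234.2, 133.3 and 143.1, again with library 4 highest. Ndufa1, a short subunit needed for assembly of the membrane arm, lay at 87.9, 103.0 and 76.5 FPKM against 93.3, 59.8 and 64.7, with library 4 again above the other double mutants (log2 difference -0.24).

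In the distal membrane arm, 10 Ndufb genes had a median difference of -0.04 and 4 of 10 were above 0. The range was -0.19 to 0.24. Ndufb8, a subunit often used to gauge assembled complex I, lay at 259.6, 292.6 and 232.4 FPKM in controls and at 233.1, 209.8 and 209.7 in double mutants. Its log2 difference of -0.19 was -0.10 from aligned bases and 0.003 for its 680-nt transcript alone. The other end of the range was Ndufb3, at 91.3, 130.7 and 97.0 FPKM against 138.4, 98.9 and 118.8. Ndufb4 was the lowest subunit gene, at 8.45, 12.3 and 8.62 FPKM against 12.4, 9.74 and 10.4. In all 3 the groups overlapped. Ndufab1, the mitochondrial acyl carrier protein, which binds a subunit in each arm of the enzyme, lay at 36.8, 47.2 and 36.8 FPKM in controls and at 85.6, 34.3 and 31.3 in double mutants. Its difference of 0.25 turned to -0.17 without library 4.

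A pair of genes keep the Nduf name although Ndufa4 is now known as a subunit of cytochrome c oxidase (complex IV) and Ndufa4l2 is its paralogue. Ndufa4 was abundant and even, at 292.7 to 379.4 FPKM in controls and 292.1 to 372.1 in double mutants (log2 difference -0.01). Ndufa4l2, a gene induced under hypoxia, lay at 6.35, 8.89 and 7.39 FPKM in controls and at 7.04, 3.56 and 5.08 in double mutants. Libraries 5 and 6 were the lowest, while library 4 lay within the controls (log2 difference -0.43, limma adjusted p = 0.51).

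The 8 Ndufaf assembly factors had a median difference of 0.01, and 4 of 8 were above 0. Ndufaf2 (chr13:108842784-108948819, minus strand, NCBIM37), the paralogue of Ndufa12 that holds its place in the late intermediate, stood at 9.53, 8.68 and 7.63 FPKM in controls and at 6.48, 6.33 and 4.98 in double mutants. All 3 double mutants were below all 3 controls. The scaled means were 8.36 ± 0.237 and 6.11 ± 1.08 (SD, n = 3 each), a log2 difference of -0.41 ± 0.14 (SE; limma adjusted p = 0.33). Aligned bases gave -0.42, and leaving out 1 library at a time gave -0.50 to -0.28. From reference transcripts alone the groups overlapped (-0.28). Its 679-nt transcript was lower in every double mutant (log2 difference -0.60), while in its 596-nt transcript the groups overlapped (0.21). In library 1, 2.62 of the 9.53 FPKM came from an assembled transcript of 348 nt, found in that library alone. Its partner in sequence, Ndufa12, had a difference of 0.11. Ndufaf8, which stabilises Ndufaf5, lay at 11.6, 10.9 and 8.57 FPKM against 15.7, 9.71 and 9.70, with library 4 alone outside the controls. Ndufaf4, an assembly factor of the ubiquinone module, lay at 15.5, 11.4 and 11.1 FPKM against 11.4, 12.3 and 15.8. Its partner Ndufaf3 lay at 9.97, 10.3 and 7.90 FPKM against 12.1, 6.08 and 8.49. The 9 tested assembly factors without the Nduf name had a median difference of 0.08. Of these, 5 of 9 were above 0 (48.8% of all genes), and 0 of 9 passed the test (0.0439% of all genes). Among them Timmdc1, a membrane arm assembly factor, had the smallest p (log2 difference -0.22, limma adjusted p = 0.54).

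The larger pattern lay between libraries, not between genotypes. Each gene's deviation from its own mean over the 6 libraries was taken on the log2 scale. The median deviation of the 46 genes was -0.15, 0.22 and -0.01 in libraries 1, 2 and 3, and 0.22, -0.06 and -0.16 in libraries 4, 5 and 6. Library 2 held 41 and library 4 held 42 of the 46 genes above their own mean, and libraries 1 and 6 held 4 and 5. Thus a control and a double mutant were the high libraries, and a control and a double mutant were the low ones. Both libraries 2 and 4 were above both libraries 1 and 6 in 39 of 46 genes (84.8%), against 22.6% of all genes tested, a count chosen after the values were seen. The assembly factors took part less strongly in value, at -0.07, 0.11 and -0.05 in libraries 1 to 3 and 0.09, -0.01 and -0.07 in libraries 4 to 6; the difference between classes was not tested. The other respiratory complexes are given for comparison, with no test. Complex II was at -0.16, 0.23 and 0.03 in libraries 1 to 3 and then at 0.13, -0.08 and -0.05. Complex III was at -0.15, 0.14 and 0.05 and then at 0.32, -0.07 and -0.08. Complex IV was at -0.18, 0.15 and 0.00 and then at 0.29, -0.06 and -0.12. ATP synthase was at -0.25, 0.08 and -0.06 and then at 0.32, 0.02 and -0.16, with library 2 raised less than in complex I.

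**Figure D3:**
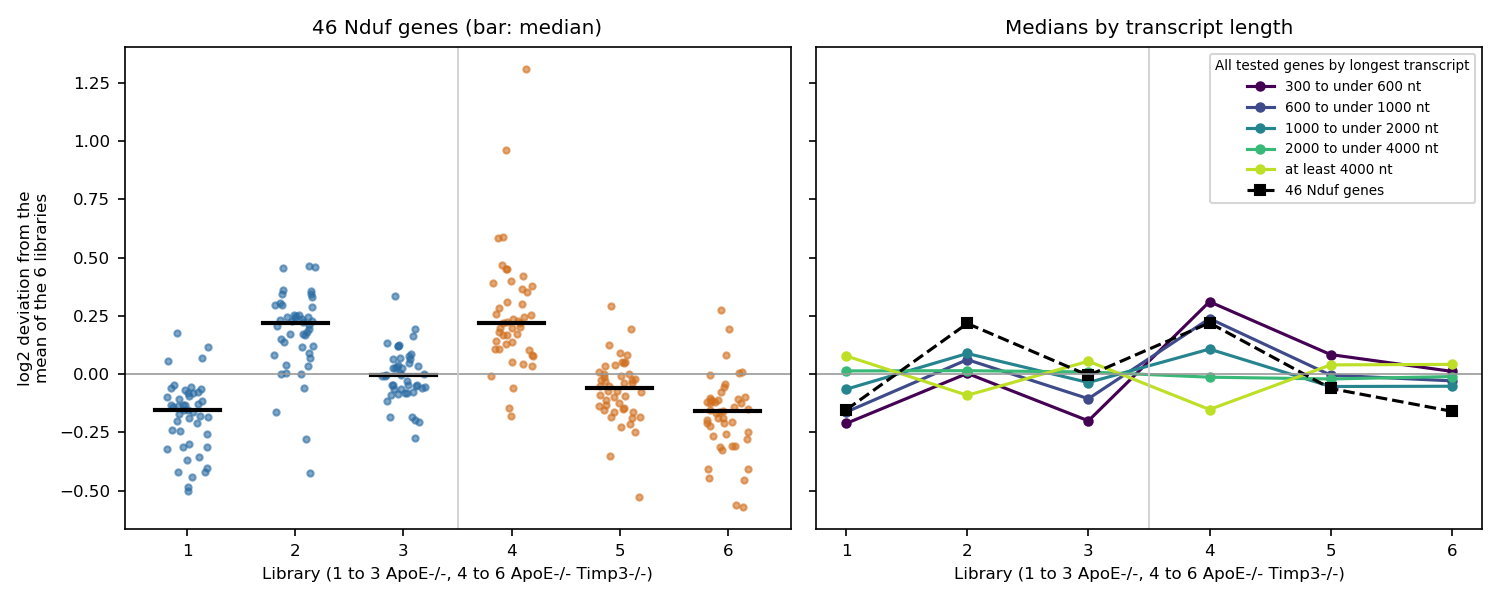
Left, the log2 deviation of each of the 46 Nduf genes from its own mean in each library (points) with the median (bars); right, the median deviation of all tested genes by length of their longest transcript (coloured lines) and of the Nduf genes (dashed). The Nduf median is highest in libraries 2 and 4 (0.22 each), and the shortest genes are high in library 4 (0.31) but not in library 2 (0.00).

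Sequencing depth and markers of other cells moved with these libraries, and their part in the result was not tested. Aligned sequence was 654, 1339 and 827 megabases in libraries 1 to 3 and 910, 732 and 683 in libraries 4 to 6. Libraries 2 and 4, high in complex I genes, thus held the most sequence, and libraries 1 and 6 the least. The 6 atrial markers had median deviations of 2.02, -1.92 and -2.18 in libraries 1 to 3 and of -1.55, 1.83 and 2.48 in libraries 4 to 6. Their summed scaled level ran from 124 to 1481 FPKM in controls and from 175 to 1467 in double mutants, and 6 of 6 had a difference above 0. Bmp10 was listed at 0 in library 4. The complex I medians of the same libraries were -0.15, 0.22 and -0.01, then 0.22, -0.06 and -0.16. Libraries 1 and 6 were thus low in complex I genes and high in atrial markers, and libraries 2 and 4 the reverse. Library 3, the lowest in the atrial median, was near 0 in complex I genes, library 5 was high in atrial markers and only slightly low in complex I genes, and library 2 had an atrial sum of 812 FPKM, near the 996 of library 5, through Nppa. Comparing the atrial-high libraries alone (1 against 5 and 6), 29 of 46 complex I genes were above 0 (49.4% of all genes) with a median of 0.03. Comparing the atrial-low libraries alone (2 and 3 against 4), 35 of 46 were above 0 (48.8% of all genes) with a median of 0.08. Each of these comparisons has an arm of 1 library, and in the latter it is library 4, which was high in red blood cell markers. With the atrial marker level as a covariate, 40 of 46 were above 0 (48.9% of all genes) with a median of 0.10, and 0 of 46 passed the test (0.00878% of all genes). These 3 computations were added after the values were seen.

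Red blood cell and fat markers were high in single libraries. Endothelial and fibroblast markers leaned lower in the double mutants, though none passed the test. Of the red blood cell markers, 5 of 8 were tested, and their sum was 117 to 494 FPKM in controls and 478, 1204 and 12310 in double mutants, with library 4 at the top. Of the 7 fat markers, 6 were tested, and their sum was 187 FPKM in library 1 and 9.30 to 34.0 in the other 5; Ucp1 was listed at 0 in libraries 3, 4 and 6. Endothelial markers were below 0 in 10 of 10 genes (median -0.34), and 4 of 10 were lower without overlap, summing to 430 to 583 FPKM in controls and 355 to 467 in double mutants. Fibroblast markers were below 0 in 10 of 10 genes (median -0.49), and 7 of 10 were lower without overlap, summing to 310 to 420 FPKM and 265 to 314 FPKM. The smallest limma adjusted p was 0.23 among endothelial and 0.19 among fibroblast markers. Of all genes tested, 48.8% were above 0, 9.22% were lower without overlap and 0.0439% passed the test. Of the 46 Nduf genes, 23 were below 0 and 23 above 0, and their relation to these markers was not tested. The 12 cardiomyocyte markers had a median difference of 0.14 with 10 of 12 above 0. The part of the heart taken was not given, and in such tissue fewer cells of a type and less RNA per cell cannot be told apart.

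Over all genes the genotype difference varied with transcript length, and the short complex I genes lay below other genes of their length in the shorter bins. Of all tested genes, the 838 whose longest transcript was 300 to under 600 nt had a median difference of 0.25, the 887 of 600 to under 1000 nt 0.11, and the 3328 of at least 4000 nt -0.04. The shortest genes were at 0.31 in library 4 and at -0.21 and -0.20 in libraries 1 and 3. Complex I genes are short: 4 of 46 fell in the shortest bin and 18 in the next. Their medians there were -0.05 and 0.04; the gap to all genes of the same length was not tested. The remaining 14, 8 and 2 genes, in the bins from 1000, 2000 and 4000 nt, had medians of 0.03, -0.00 and -0.08. Taking the length of the strongest transcript in place of the longest put 12 Nduf genes at 300 to under 600 nt, with a median of -0.04 beside 0.21 for all 1035 genes of that length. After a smooth trend of the values on length was removed in each library, the median of the 46 genes was -0.05, and 7 were lower and 1 higher without overlap, against 10% and 10.3% of all genes.

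The scaling between libraries set which way the complex I genes leaned. Without any scaling, 14 of 46 were above 0 (38.6% of all genes) and the median was -0.06, beside -0.07 over all genes. With the tested genes of each library brought to a fixed total, 7 of 46 were above 0 (25.5% of all genes), the median was -0.16, as over all genes, and 18 were lower without overlap, against 22% of all genes. With factors taken from genes under 1000 nt, 6 of 46 were above 0 (21.8% of all genes), the median was -0.20 beside -0.19 over all genes, and 22 were lower without overlap, against 23.7%. In these 3 settings the median of all genes moved with that of the complex I genes. Quantile normalization was different: the median of all genes stayed at -0.01 while that of the 46 was -0.12, 12 of 46 were above 0 (48.1% of all genes), and 15 were lower without overlap, against 10%. Under these 4 settings the number called was 0 of 46 each time, against 0.0439% of all genes without scaling, 0.0527% by quantile normalization, 0.0615% with a fixed total and 0.0791% with short-gene factors. The smallest adjusted p of a member under them was 0.13. The sign of the group's median thus changed with the scaling.

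**Figure D4:**
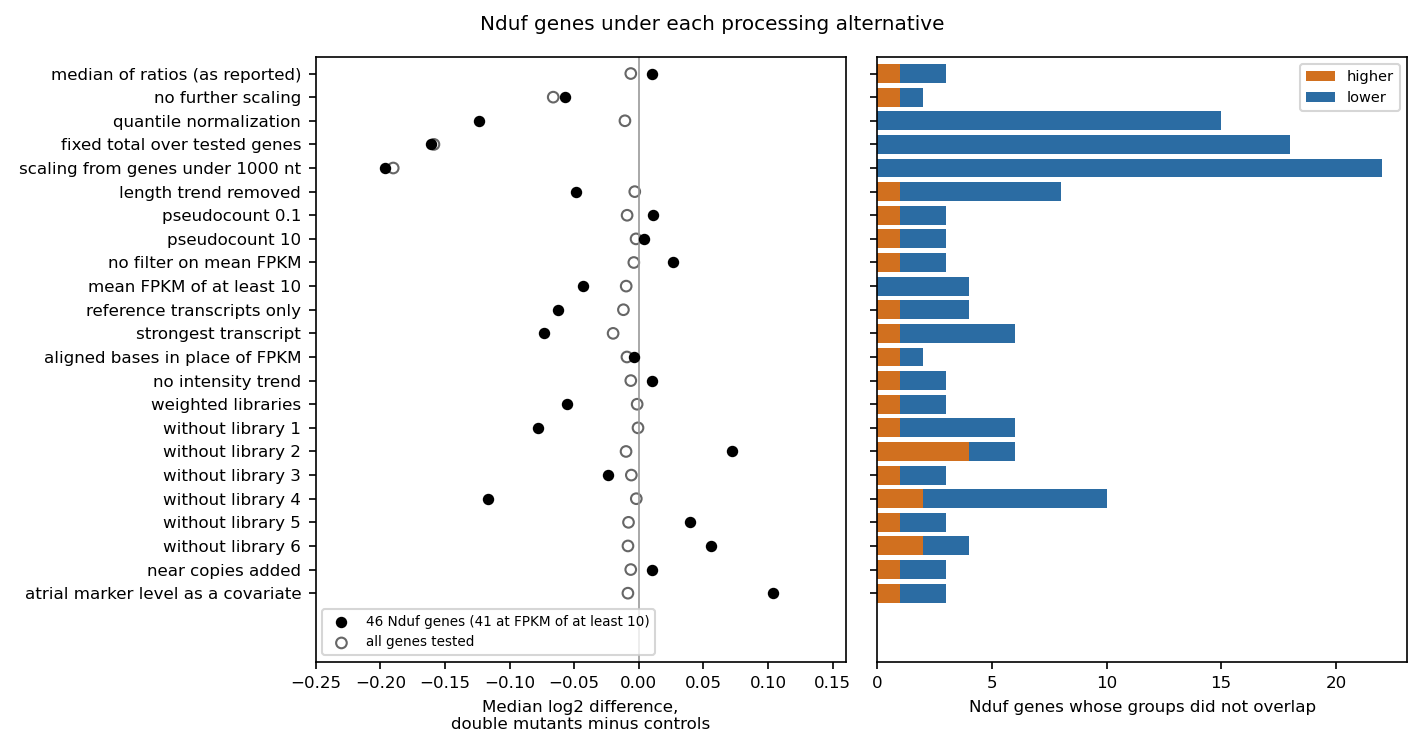
Left, the median log2 difference of the Nduf genes (black) and of all genes tested (open) under each processing alternative; right, the number of Nduf genes whose groups did not overlap, higher (orange) or lower (blue) in double mutants. The Nduf median runs from -0.20 to 0.10, and the lower genes reach 22 when scaling factors come from genes under 1000 nt.

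Single libraries had a like weight. Without library 4, which held the red blood cell signal, 9 of 46 genes were above 0 (49.6% of all genes), the median was -0.12, and 8 were lower and 2 higher without overlap, against 16.6% and 17.3% of all genes for 3 against 2 libraries. Without library 2, 37 of 46 were above 0 (48.6% of all genes), the median was 0.07, and 4 were higher and 2 lower, against 15.6% and 15.1%. Without library 1, which held the fat and part of the atrial signal, 14 of 46 were above 0 (49.9% of all genes) with a median of -0.08. Without library 5, 27 of 46 were above 0 (48.6% of all genes) with a median of 0.04, and without library 6, 34 of 46 (48.5%) with a median of 0.06. The number called was 0 of 46 in each, against 0.0878% of all genes without library 4, 0.0791% without library 2, 0.0264% without library 1, 0.0527% without library 5 and 0.0439% without library 6.

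The transcript models entered some gene values strongly. The authors' files hold reference transcripts and, separately in each library, transcripts assembled from its own reads; 39 such transcripts fell in 22 of the 46 genes, 11 of them, in 10 genes, in library 4. For Ndufa13 in library 4, the 1243-nt reference transcript was listed at 0 and an assembled transcript of 615 nt at 172.7 FPKM, whereas the other 5 libraries used the reference. Aligned bases, which do not depend on the transcript's length, were counted per megabase aligned to genes. They were 148.9, 202.3 and 159.0 in controls and 235.6, 157.4 and 143.5 in double mutants for this gene, and their log2 difference was 0.15 in place of 0.46. For Ndufs4 in library 4, 19.4 FPKM came from the 1534-nt reference and 49.2 from an assembled transcript of 504 nt. Its aligned bases were lowest in that library, at 123.8 per megabase against 136.1 to 170.2 in the others, and the difference went from 0.16 to -0.14. For Ndufab1, 60.7 of the 85.6 FPKM in library 4 came from an assembled transcript of 367 nt.

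Ndufc1 was affected in the other direction. Its 1249-nt transcript was at 25.0, 23.1 and 20.3 FPKM in controls and at 21.4, 17.0 and 23.3 in double mutants, groups that overlapped. A 282-nt transcript was at 18.7 and 15.3 FPKM in libraries 1 and 2 and listed at 0 in the other 4. A 504-nt transcript was at 9.58 to 14.7 FPKM in libraries 2 to 5 and listed at 0 in libraries 1 and 6. For Ndufs1 the 2661-nt transcript was at 290.2, 246.8 and 272.6 FPKM in controls and at 276.9, 286.7 and 344.0 in double mutants. A 2918-nt transcript of it was at 38.3 and 39.5 FPKM in libraries 4 and 5 and listed at 0 in the rest. In the fit of single transcripts, 0 of 80 from these genes were called, against 0.133% of all, and 5 did not overlap, against 15.3% of all. Of the 80, 27 in 18 genes were listed at 0 in some library, which can be a failed estimate.

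The deposited intervals show how precisely each library was counted. Of 17 members with a single reference transcript, 16 had libraries in which only 1 transcript of the gene was above 0, 87 values in all; Ndufs8 had a further transcript in every library and was left out. The deposited 95% intervals of these values reached 2.37% to 24.3% of the value to either side, with a median of 6.26%. The widest were those of Ndufa4l2. For 71 of the 87 values (81.6%) the widths gave whole numbers of fragments, within 0.01, with a median of 1111 and a range of 117 to 7116. For Ndufa1 they gave 569, 1478 and 704 fragments in controls and 819, 515 and 471 in double mutants, with intervals reaching 5.20% to 9.22% to either side. Its scaled control mean was 86.9 ± 13.9 FPKM (SD, n = 3), a spread wider than these intervals. Such intervals cover counting error alone.

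Processed copies of several complex I genes complicate their levels. A processed copy is a retrotransposed, intronless duplicate of an mRNA elsewhere in the genome, and reads from the gene and from a near-identical copy cannot be assigned with certainty. Transcripts of 12 copies, each at least 90% identical over at least 200 nt, matched 11 of the 46 genes, and all 12 had a mean of at least 1 FPKM. In 7 of the 12 pairs the copy's FPKM exceeded the gene's. Their identity is easiest to see in the first 90 coding bases of 3 pairs, from the reference transcripts (GRCm38.p6), where capitals mark bases that differ between gene and copy. They are shown because these letters decide whether a read can be told apart: Ndufb4 and its copy do not differ here, Ndufs3 and its copy differ at 3 bases, and Ndufb2 and its copy at 15.
Ndufb4: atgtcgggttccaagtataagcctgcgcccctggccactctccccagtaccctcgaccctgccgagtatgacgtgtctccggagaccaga
Ndufb4c: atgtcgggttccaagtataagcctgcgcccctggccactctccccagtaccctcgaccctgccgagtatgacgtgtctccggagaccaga
Ndufs3: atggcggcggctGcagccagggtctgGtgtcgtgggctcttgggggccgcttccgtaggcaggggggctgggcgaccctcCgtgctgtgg
Gm12251: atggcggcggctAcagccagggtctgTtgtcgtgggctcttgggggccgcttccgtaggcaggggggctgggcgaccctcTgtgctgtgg
Ndufb2: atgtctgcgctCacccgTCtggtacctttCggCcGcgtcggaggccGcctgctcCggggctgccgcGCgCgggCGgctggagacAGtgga
Gm13186: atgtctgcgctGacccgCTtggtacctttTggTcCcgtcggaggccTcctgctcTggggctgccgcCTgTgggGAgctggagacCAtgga

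The Ndufb4 copy, Ndufb4c (chr15:73639937-73640326, NCBIM37), was identical over 390 nt and stood at 44.7 FPKM in the mean, above the 10.3 of Ndufb4; the reference used here labels it a processed pseudogene. The Ndufa12 copy Gm15920 (99.5% identical) stood at 78.6 FPKM against 27.3. The Ndufs3 copy Gm12251 (chr11:58206271-58207065, NCBIM37; 98.6% identical) stood at 151.2 against 159.1, while the Ndufb2 copy Gm13186 (chr2:3448557-3448872, NCBIM37; 92.1% identical) stood at 47.2 against 85.9. The Ndufa11 copy Ndufa11b (94.8% identical) stood at 42.15 FPKM against 18.02. The levels of Ndufb4, Ndufa11 and Ndufa12 as low subunit genes are therefore uncertain. With each copy's FPKM added to its gene, the difference of Ndufb4 went from 0.21 to 0.37 and that of Ndufa12 from 0.11 to 0.40, and neither passed the test. The median of the 46 genes stayed at 0.01 with 23 above 0. The 35 genes without a copy had a median of -0.01, and Ndufs1, Ndufc1 and Ndufaf2 are all among them.

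**Figure D5:**
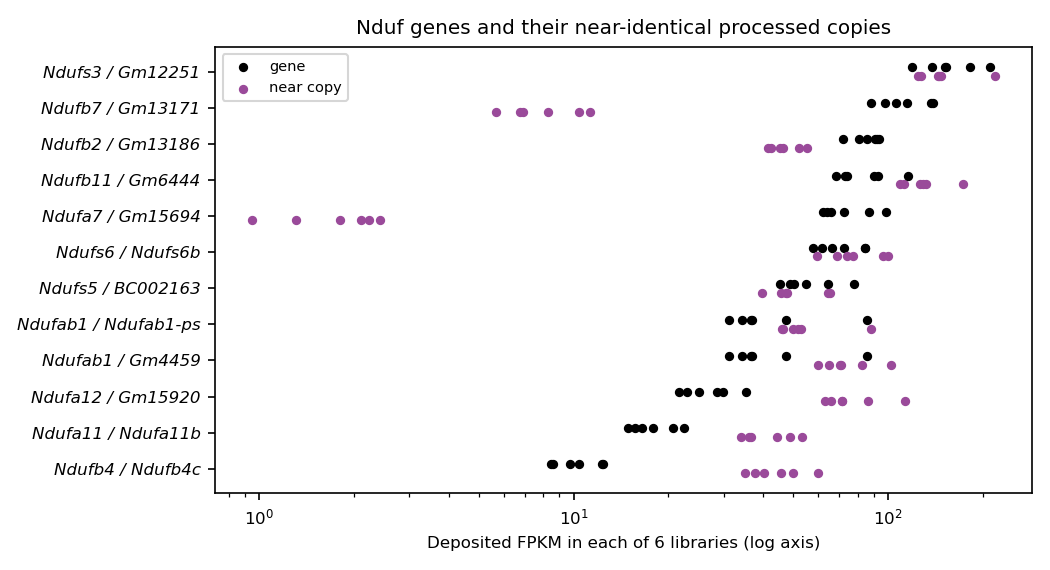
Deposited FPKM (log axis) of 11 Nduf genes (black) and their 12 near-identical processed copies (purple), 1 point per library. The copy lies above its gene in the mean in 7 pairs, most widely for Ndufb4 and Ndufb4c (10.3 and 44.7 FPKM).

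Promoters of complex I genes were searched for the motifs of factors known to drive nuclear respiratory genes. RefSeq promoter windows (GRCm38.p6, 250 bases before to 50 after the start site) were found for 40 of the 46 genes; Ndufa2, Ndufa4l2, Ndufaf6, Ndufb9 and Ndufs1 were among those with no entry. Each motif was searched on both strands as exact letters, and matches of different motifs could share bases. The NRF1 motif, GCGCA and GCGC with any base between them, was in 9 of 40 windows (22.5%), against 4.78% of all 27025 promoter windows. The YY1 motif AAGATGGC was in 8 of 40 (20%), against 2.88%. The GABPA motif CCGGAAG was in 6 (15%), against 9.12%, the ERR motif AAGGTCA in 3 (7.5%), against 4.66%, and the SP1 motif GGGCGG in 21 (52.5%), against 35.9%. A match describes letters in the window and is not a measured binding site.

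The promoters of the 2 genes whose scaled values were lower in every double mutant are shown with that of Ndufs5, an accessory subunit whose window holds both an NRF1 and an ERR match. Capitals mark the motif matches, read 5′ to 3′ on the gene's strand: the YY1 motif 23 bases into the Ndufc1 transcript, the SP1 motif at -14 of Ndufaf2, and in Ndufs5 the ERR motif, on the opposite strand, at -228 and the NRF1 motif at -98.
Ndufc1 promoter, chr3:51408906-51409205, strand minus: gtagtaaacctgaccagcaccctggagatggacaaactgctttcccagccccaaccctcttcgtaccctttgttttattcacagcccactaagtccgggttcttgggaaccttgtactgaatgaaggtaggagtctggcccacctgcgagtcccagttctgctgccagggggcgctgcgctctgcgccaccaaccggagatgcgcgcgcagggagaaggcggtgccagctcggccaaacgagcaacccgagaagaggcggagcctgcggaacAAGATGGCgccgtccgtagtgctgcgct
Ndufaf2 promoter, chr13:108158576-108158875, strand minus: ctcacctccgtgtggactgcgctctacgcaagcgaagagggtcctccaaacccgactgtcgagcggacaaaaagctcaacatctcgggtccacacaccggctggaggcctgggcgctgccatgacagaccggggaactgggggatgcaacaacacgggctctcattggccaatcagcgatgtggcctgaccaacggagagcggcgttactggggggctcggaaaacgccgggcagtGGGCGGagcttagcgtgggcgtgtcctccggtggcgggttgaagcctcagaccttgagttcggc
Ndufs5 promoter, chr4:123718137-123718436, strand minus: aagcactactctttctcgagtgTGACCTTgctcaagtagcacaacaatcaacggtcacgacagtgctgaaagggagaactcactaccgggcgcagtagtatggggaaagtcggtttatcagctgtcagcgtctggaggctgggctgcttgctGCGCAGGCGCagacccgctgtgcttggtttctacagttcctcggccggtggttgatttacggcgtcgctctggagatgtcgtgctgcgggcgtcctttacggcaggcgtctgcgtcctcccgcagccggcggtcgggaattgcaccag

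Ndufc1 and Ndufaf2 thus shared no match to these motifs. Ndufs5 lay at 50.1, 78.0 and 45.2 FPKM in controls and at 64.3, 48.7 and 54.7 in double mutants, with libraries 2 and 4 highest (log2 difference 0.06). Of 12 regulators of nuclear respiratory genes, the factors behind these motifs other than SP1 among them, 9 were above 0 (48.8% of all genes). Their median difference was 0.10, and 0 of 12 passed the test (0.0439% of all genes). Nrf1 was at 2.16, 1.59 and 1.55 FPKM in controls and at 2.17, 1.85 and 1.88 in double mutants. Its scaled values did not overlap, as for 19.2% of all genes (log2 difference 0.16, limma adjusted p = 0.66). Ppargc1a, the coactivator that raises mitochondrial gene expression, lay at 12.2, 6.495 and 8.26 FPKM against 8.74, 15.9 and 13.2 (log2 difference 0.52, limma adjusted p = 0.50). Libraries 1, 5 and 6 were its highest, the same 3 that were high in atrial markers.

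The other respiratory complexes were measured the same way. The median difference was -0.04 for 7 genes of complex II (succinate dehydrogenase), 0.07 for 9 of complex III (cytochrome bc1), 0.05 for 11 of complex IV and 0.08 for 16 of ATP synthase, beside 0.04 for the 36 complex I subunit genes. In each of these lists 0 genes passed the test, against 0.0439% of all genes. The counts above 0 were 3 of 7, 5 of 9, 7 of 11 and 11 of 16, against 48.8% of all genes. Without overlap, 1, 0, 1 and 3 genes were higher, against 10% of all genes, and 1, 0, 1 and 0 were lower, against 9.22%. The smallest p in these lists belonged to Cox7c, a small subunit of complex IV, at 54.2, 54.3 and 46.7 FPKM in controls and 75.0, 58.3 and 69.2 in double mutants. Its groups did not overlap (log2 difference 0.45, limma adjusted p = 0.26). Sdhaf2, which helps attach the flavin of complex II, was at 8.66, 8.94 and 6.74 FPKM against 5.96, 5.22 and 6.13 (log2 difference -0.36, limma adjusted p = 0.30), and its scaled values did not overlap either.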

How the data were processed

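Each library came as a table of transcripts that the authors deposited, listing for every transcript its FPKM, a 95% interval and its coverage, per the file headers and attributes. The submitters' processing notes name TopHat, Bowtie, Cufflinks and the build NCBIM37; versions, read length and strand use are not given here. Reads per gene are not in these tables, so count models were not used.

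Reference transcripts were given to genes by identifier or exon overlap, and assembled transcripts of at least 300 nt by exon overlap. Gene FPKM (summed over transcripts) were scaled by the median of ratios. Two-sided tests used limma 3.58.1 (R 4.3.3) on log2(scaled FPKM + 1), an intensity trend in the variance and p-values adjusted by Benjamini-Hochberg over the 11385 genes with a mean FPKM of at least 1 and a transcript of at least 300 nt. This scale understates changes of low genes. Single-library values are as deposited, and means ± SD are scaled FPKM. Aligned bases are coverage times length. Copies were found with BLAST 2.17.0. Gene coordinates are NCBIM37, from the files; sequences are from RefSeq or GENCODE, GRCm38.p6. The fit was tested on simulated data with independent noise for each gene. Those data lack the shifts shared between libraries seen here, so the fit was not tested under such shifts.

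Per-library values are given for up to 4 genes with the smallest p in each class and up to 3 in other lists, and for some others chosen after their values were seen. The members and lists were chosen with earlier results of these data known. The labels call the controls littermates and say no more on how mice or libraries relate, so a p-value here reflects only the variation among these 6 libraries. Alternatives covered scaling, length, pseudocount, filter, transcript choice, weights and each library left out; near copies, the atrial covariate and the comparisons within atrial-high and atrial-low libraries were added after the data were seen. The values of 1 member and of 1 marker are not reported here singly, though both stay in the counts.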

Additional observations from a re-analysis of the deposited data

How the results depend on the processing

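No paired analysis was possible because the libraries are numbered 1 to 6 and the groups share no number. Over all settings 0 Nduf genes were called, and the smallest adjusted p was 0.10, with weighted libraries (limma). Of 1007 values of single genes, 70, in 27 genes, moved by more than the spread between replicates (1 SD), and 200 changed sign, 33 of them with a move beyond 1 SD. With factors from genes under 1000 nt the medians were -0.20 for all Nduf genes, -0.19 for core subunits, -0.24, -0.17 and -0.27 for the hydrophilic, proximal and distal accessory subunits, and -0.20 for assembly factors. With a fixed total the proximal subunits were at -0.13 and the assembly factors at -0.16. Ndufab1, the acyl carrier, was at -0.35 from reference transcripts alone and -1.69 from its strongest transcript, listed at 0 in library 4. The count of Nduf genes above 0 was 14 without scaling (38.6% of all genes) and 12 by quantile normalization (48.1%). It was 7 with a fixed total (25.5%) and 6 with factors from short genes (21.8%). At a mean FPKM of at least 10 it was 12 of 41 (48.6%). It was 14 with weighted libraries (49.9%) and 40 with the atrial covariate (48.9%). With 1 library left out it was 9 to 37 (48.5% to 49.9%). The count without overlap was 15 by quantile normalization (19.4% of all genes), 18 with a fixed total (26%) and 22 with short-gene factors (27%). It was 8 with the length trend removed (20.3%) and 6 from strongest transcripts (15.5%). With 1 library left out it was 3 to 10 (26% to 33.9%). These shares count both directions. Over all genes, the 5 calls became 9 with short-gene factors, 3 and 1 with pseudocounts of 0.1 and 10, 9 without a filter, 0 at a mean FPKM of at least 10, 9 from reference transcripts, 102 with weighted libraries, 1 with the atrial covariate, and 3 to 10 with 1 library left out. Except where a value is given above, the cause of these shifts was not tested. With 3 libraries a group, small differences could not be called.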
